A study of Arabidopsis thaliana with 18 samples.

Results

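The data compared leaves of an Arabidopsis thaliana line carrying a scrambled artificial microRNA 24 h after dexamethasone with leaves of the same line 12 h after it, so they describe what changed in the control line of a NAA50 knockdown study between those sampling times. The comparison uses 6 of the 18 libraries, 3 at each time, taken by their labels, and covers all genes: 18344 of the 23790 genes in the deposited count table had enough reads to be tested. Every plant in these groups was 4 weeks old, was sprayed with 50 µM dexamethasone and carried a transgene for an amiRNA that dexamethasone induces. In the scrambled line that amiRNA has a shuffled sequence and serves as the negative control; in the other line, called the NAA50 line here, it targets NAA50, which encodes an N-terminal acetyltransferase. The groups used below are the scrambled line at 24 h and at 12 h, with its 0 h samples for reference levels, and the NAA50 line at 24 h and at 12 h. The NAA50 line at 0 h enters the shared fit, the levels of NAA50 and the figure of clock genes. Each library was made from the fourth leaf of 4 plants whose RNA was pooled, about 0.4 g of leaf, grown under a cycle of 8 h light and 16 h dark. The labels name neither the ecotype, the promoter behind the transgene, the number of independent transgenic lines, nor the clock time of spraying. Time after dexamethasone, time of day and leaf age therefore cannot be told apart in any difference between 24 h and 12 h. The labels do not say whether replicates were sprayed and grown separately, so p-values measure the spread between these pools.

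The circadian clock of Arabidopsis is a loop of repressors that peak at different times of day. LHY and CCA1, related MYB factors of the morning, repress evening genes through a short promoter sequence called the evening element, and the pseudo-response regulators PRR9, PRR7, PRR5 and TOC1 repress LHY and CCA1 in turn from day into night. Light, sugar and the clock together set much of the daily rise and fall of leaf transcripts, among them those for photosynthesis, starch metabolism, sulfate assimilation and growth.

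The promoters of 6 clock genes are printed because the morning clock list had the highest share of changed members of the lists below. Each is the 250 bases before the annotated gene start, on the gene's strand, from RefSeq (TAIR10.1): LHY at chr1:37872-38121 (minus strand), CCA1 at chr2:19245341-19245590 (plus), RVE1 at chr5:5692993-5693242 (minus), PRR9 at chr2:19232357-19232606 (plus), TOC1 at chr5:24674713-24674962 (plus) and LUX at chr3:17182792-17183041 (plus). Capitals mark the G-box CACGTG and the evening element AAATATCT, which reads AGATATTT on the other strand.
LHY: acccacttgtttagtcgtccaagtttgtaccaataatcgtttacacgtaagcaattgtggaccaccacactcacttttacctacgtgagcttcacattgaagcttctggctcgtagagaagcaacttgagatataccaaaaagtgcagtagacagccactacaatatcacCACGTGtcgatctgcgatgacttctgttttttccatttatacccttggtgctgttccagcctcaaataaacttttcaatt
CCA1: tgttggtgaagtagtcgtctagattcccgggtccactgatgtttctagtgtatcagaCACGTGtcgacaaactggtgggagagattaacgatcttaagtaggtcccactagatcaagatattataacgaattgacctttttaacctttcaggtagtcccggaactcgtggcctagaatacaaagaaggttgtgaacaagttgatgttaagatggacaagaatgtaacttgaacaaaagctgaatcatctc
RVE1: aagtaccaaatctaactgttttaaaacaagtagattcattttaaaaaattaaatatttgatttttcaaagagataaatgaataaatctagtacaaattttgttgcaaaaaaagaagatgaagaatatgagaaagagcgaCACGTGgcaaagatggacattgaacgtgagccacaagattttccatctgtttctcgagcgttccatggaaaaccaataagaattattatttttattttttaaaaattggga
PRR9: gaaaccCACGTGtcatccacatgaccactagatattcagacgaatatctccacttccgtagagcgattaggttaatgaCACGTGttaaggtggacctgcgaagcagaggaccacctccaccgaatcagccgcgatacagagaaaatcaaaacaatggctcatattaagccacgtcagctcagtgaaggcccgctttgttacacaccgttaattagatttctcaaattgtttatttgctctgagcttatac
TOC1: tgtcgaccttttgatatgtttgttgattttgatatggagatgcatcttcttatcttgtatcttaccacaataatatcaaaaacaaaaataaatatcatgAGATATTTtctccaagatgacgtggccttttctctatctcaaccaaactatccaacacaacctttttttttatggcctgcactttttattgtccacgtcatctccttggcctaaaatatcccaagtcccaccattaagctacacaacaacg
LUX: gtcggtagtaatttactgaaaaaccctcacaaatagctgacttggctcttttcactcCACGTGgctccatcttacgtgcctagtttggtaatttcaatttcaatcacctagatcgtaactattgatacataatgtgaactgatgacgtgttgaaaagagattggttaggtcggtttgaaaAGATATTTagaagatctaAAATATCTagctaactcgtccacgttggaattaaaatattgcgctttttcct
The promoters of LHY, CCA1 and RVE1 each held 1 G-box, that of PRR9 held 2, that of TOC1 held 1 evening element, and that of LUX held a G-box and 2 evening elements.

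The 6 libraries held between 10653628 and 12030281 counts assigned to genes, so depth was nearly even, and a count of 3 corresponded to between 0.244 and 0.295 CPM (counts scaled to the same library total) in any of them. CPM values carry edgeR's TMM scaling. NAA50, the targeted gene, stood at 17.7, 17.1 and 16.0 CPM at 24 h and at 16.6, 12.8 and 15.7 CPM at 12 h in the scrambled line, a log2 change of 0.17 ± 0.16 (SE) that did not pass the test (edgeR adjusted p = 0.432). It stood at 2.36, 3.31 and 4.62 CPM at 24 h and at 3.75, 4.16 and 3.12 CPM at 12 h in the NAA50 line. At 0 h NAA50 had 14.8, 13.8 and 13.4 CPM in the scrambled line and 13.4, 11.6 and 12.7 CPM in the NAA50 line. Its levels thus set apart the NAA50-line libraries of 12 and 24 h, but could not check the 12 h against the 24 h labels. The codes of the scrambled 12 h libraries differ between the sample titles and the count table, and were matched by time and replicate number. On the first principal component of the 6 libraries, which held 65.3% of the variance, the 24 h and 12 h libraries lay apart. Markers of root and of flower had between 1 and 39 counts each over all 18 libraries and none could be tested.

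Between 12 and 24 h, 5627 of the 18344 tested genes (30.7%) changed at an adjusted p under 0.05 in edgeR's quasi-likelihood test, with Benjamini-Hochberg adjustment over all tested genes. Of these, 2645 genes (14.4% of those tested) were higher at 24 h and 2982 (16.3%) were lower. Large changes were more often decreases: of 1677 called genes with at least a 2-fold change (9.14% of those tested), 557 (3.04%) were higher and 1120 (6.11%) lower, and 94 were over 4-fold higher against 224 over 4-fold lower. The 3 libraries of 24 h and the 3 of 12 h did not overlap for 5327 of the called genes (29.0% of those tested). The share without overlap among genes that were not called is not given, so lack of overlap is description only. Of all calls, 47% were higher at 24 h, and this share was 61.6% with scaling by library size alone, where the median change of all tested genes moved to 0.083 from -0.0277 on the log2 scale. The number of calls was 3363 without 12 h library 1, 3726 without 24 h library 1, 3169 without 24 h library 2 and 3491 without 12 h library 2. It was 6670 without 24 h library 3. Of the 30 pathway lists described below, 23 had more members lower than higher at 24 h, 6 had more members higher, and the ribosome list had none called. With scaling by library size 18 lists had more members lower, 6 had more higher and 6 had as many of each. Since whole leaves were sampled, fewer cells of a type and less RNA per cell cannot be told apart.

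Morning clock genes were lower at 24 h. Of 13 tested members of the morning and day-phased list, 11 fell and none rose (84.6% called, against 30.7% of all tested genes), with a median log2 change of -0.66 (all genes: -0.0277). LHY, a MYB repressor at the core of the clock, had 612, 589 and 656 CPM at 24 h, against 895, 883 and 908 CPM at 12 h and a mean of 143 CPM at 0 h. Its 24 h libraries all lay below its 12 h libraries, a log2 change of -0.53 ± 0.10 (edgeR adjusted p = 0.000954). CCA1, its close relative and partner, had 335, 333 and 374 CPM at 24 h and 775, 705 and 730 CPM at 12 h, a change of -1.08 ± 0.10 (adjusted p = 2.54e-06). RVE1, a related MYB factor that links the clock to auxin, showed the widest gap of the list, with 15.1, 13.3 and 19.8 CPM at 24 h and 147, 145 and 157 CPM at 12 h (-3.22 ± 0.17, adjusted p = 3.32e-08). Its mean at 0 h was 26.9 CPM, so its 24 h libraries lay below the 0 h mean, while those of LHY and CCA1 lay above theirs.

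PRR9, the earliest of the pseudo-response regulators in the day, had 17.1, 16.9 and 21.1 CPM at 24 h and 85.1, 77.7 and 81.5 CPM at 12 h. The fall of -2.15 ± 0.11 on the log2 scale (adjusted p = 3.32e-08) shared the smallest adjusted p of all genes with RVE1. RVE7, a MYB gene of the RVE1 group, had 2.06, 1.36 and 2.93 CPM at 24 h and 23.0, 14.1 and 11.9 CPM at 12 h (-2.93, adjusted p = 4.77e-05). RVE8 and RVE4, which activate evening genes, fell by 0.66 and 0.61 on the log2 scale. The LNK genes encode coactivators that work with RVE8: LNK3 had 99.1, 91.7 and 124 CPM at 24 h and 232, 209 and 206 CPM at 12 h (-1.04, adjusted p = 2.2e-05), and LNK1, LNK2 and LNK4 fell by 0.54, 0.66 and 0.55. The call of LNK4 (adjusted p = 0.0239) ended without 24 h library 1 (0.0761), 12 h library 1 (0.0874) or 24 h library 2 (0.12). PRR7, with 144, 134 and 141 CPM at 24 h and 167, 156 and 165 CPM at 12 h, did not pass (-0.22, adjusted p = 0.0914) although its libraries did not overlap. RVE2 did not pass either (-0.31, adjusted p = 0.789).

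**Figure D1:**
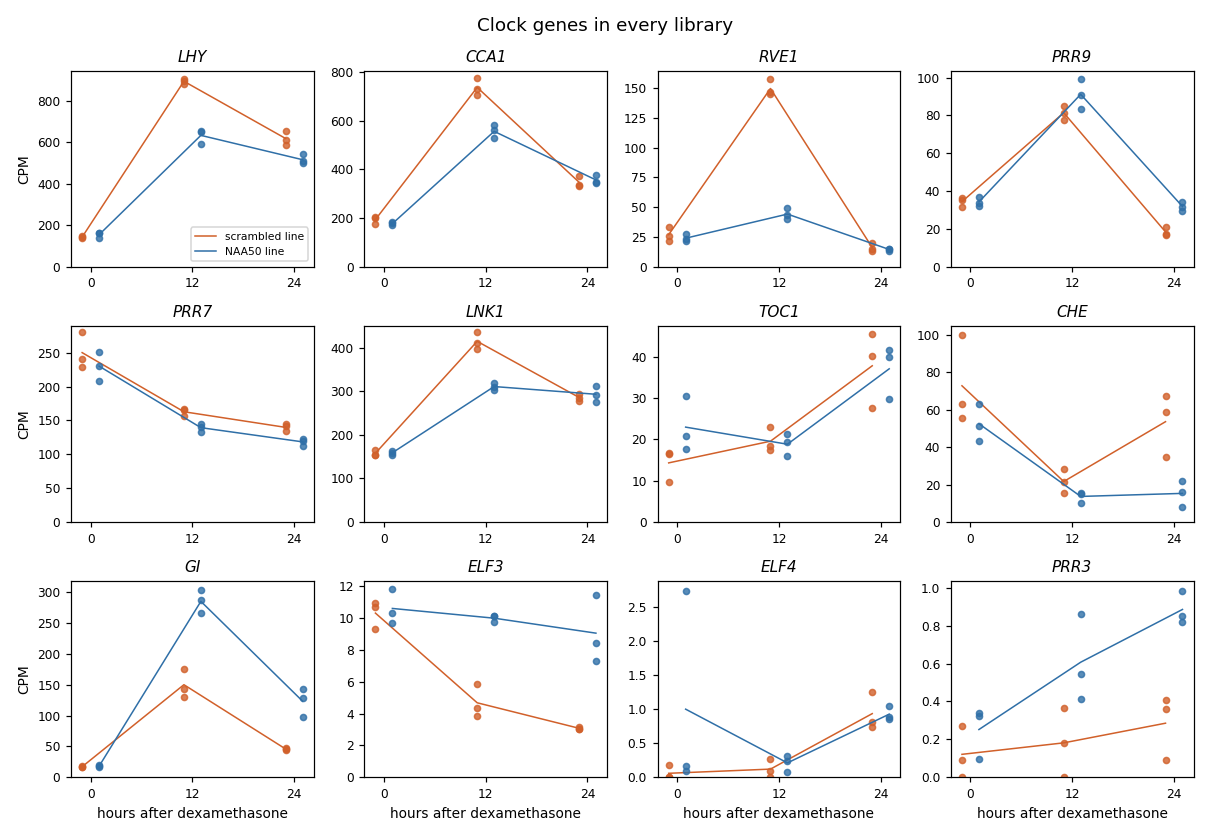
CPM of 12 clock genes in each library (points) of the scrambled line and the NAA50 line at 0, 12 and 24 h after dexamethasone, with lines through the means of 3 libraries. In the scrambled line LHY, CCA1, RVE1 and PRR9 stood lower at 24 h than at 12 h in every library, while TOC1 and CHE stood higher.

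Evening clock genes did not move as a group. Of 12 tested members 2 rose and 3 fell (41.7% called), with a median log2 change of -0.16. TOC1, the evening repressor of LHY and CCA1, had 40.1, 45.6 and 27.7 CPM at 24 h and 17.3, 18.3 and 23.0 CPM at 12 h, an increase of 0.95 ± 0.24 (adjusted p = 0.00949). CHE, a TCP factor that represses CCA1, had 58.7, 35.0 and 67.2 CPM at 24 h and 21.2, 28.2 and 15.5 CPM at 12 h (1.31 ± 0.34, adjusted p = 0.00947). The 24 h and 12 h libraries did not overlap for either gene, but the call of TOC1 ended without 24 h library 2 (adjusted p = 0.0513).

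GIGANTEA (GI), which stabilises the TOC1-degrading protein ZEITLUPE (ZTL), had 44.3, 47.0 and 46.2 CPM at 24 h and 176, 130 and 143 CPM at 12 h (-1.71 ± 0.14, adjusted p = 1.34e-06). ZTL itself fell by 0.42 on the log2 scale (adjusted p = 0.00251). ELF3, a scaffold of the evening complex that represses PRR9 at night, had 3.05, 3.17 and 3.01 CPM at 24 h and 5.83, 3.83 and 4.35 CPM at 12 h (-0.60, adjusted p = 0.0265). That call ended without 12 h library 1 (0.15) and without any 1 of the 24 h libraries 1, 2 and 3 (0.07, 0.0645 and 0.0512), and with scaling by library size (0.0858). ELF4, another member of the evening complex, had 1.26, 0.816 and 0.733 CPM at 24 h and 0.274, 0 and 0.0907 CPM at 12 h and did not pass (2.80, adjusted p = 0.0699). LUX, BOA, PRR5, PRR3, LKP2 and JMJD5 did not pass, and FKF1, with 0 counts at 24 h and 3 at 12 h over the 3 libraries, could not be tested.

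Among clock outputs, 6 of 9 tested genes fell and none rose (66.7% called), with a median log2 change of -0.61. GRP7, an RNA-binding protein that feeds back on its own splicing, had 7.63, 4.44 and 9.77 CPM at 24 h and 20.8, 22.9 and 16.9 CPM at 12 h (-1.46, adjusted p = 0.000532), and its paralogue GRP8 fell by 0.61. The DOF factors CDF2 and CDF3, repressors of flowering, fell by 0.87 and 0.99. COL2, a relative of CONSTANS, had 36.2, 18.03 and 65.1 CPM at 24 h and 137, 128 and 107 CPM at 12 h, with a wide spread between the 24 h libraries. COL1 fell by 0.40 with an adjusted p of 0.0451. Another gene on the opposite strand overlaps it over 100% of its length, and its call ended in 5 of the 6 fits that left out 1 of the libraries: 12 h library 1 (0.0788) or 3 (0.17), or 24 h library 1 (0.108), 2 (0.118) or 3 (0.0636). CAT2, CAT3 and CDF1 did not pass, and CO, COR27 and FT had too few counts to test.

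The evening element was in the promoter window, from 250 bases before to 50 after the gene start, of 7 of 13 evening-list genes (53.8%) and 2 of 13 morning-list genes (15.4%), against 5.65% of all 27443 promoters in the RefSeq table. The G-box was in 10 of 13 morning-list promoters (76.9%) and 2 of 13 evening-list promoters (15.4%), against 7.68% of all promoters. Across all genes that fell, 6.97% of promoters held an evening element and 11.1% a G-box, and across all that rose 5.06% and 7.86% did, while the shares over all tested genes were 6.02% and 9.12%. The CCA1-binding site AAAAATCT was in 8.9% of promoters of genes that fell and 8.09% of those of genes that rose. Both strands were searched, none of these letter strings contains another, and a match describes the letters alone.

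Light signalling genes formed one of the most changed lists: of 29 tested members 17 fell and 2 rose (65.5% called), with a median log2 change of -0.83. HY5, a bZIP factor that promotes light responses, had 9.15, 12.9 and 14.7 CPM at 24 h and 70.0, 67.4 and 60.2 CPM at 12 h, a change of -2.43 ± 0.15 (edgeR adjusted p = 2e-07). SIG5, a nuclear gene for a sigma factor of the chloroplast RNA polymerase, had 297, 293 and 368 CPM at 24 h and 1158, 941 and 940 CPM at 12 h (-1.67, adjusted p = 1.34e-06). BBX30, which encodes a B-box microprotein, had 2.15, 1.99 and 3.26 CPM at 24 h and 18.7, 12.29 and 15.8 CPM at 12 h (-2.65, adjusted p = 1.94e-06). In all 3 genes every 24 h library was below every 12 h library, and at 0 h they averaged 3.16, 64.7 and 0.821 CPM. SPA4, part of the COP1 ubiquitin ligase that removes HY5, fell by 1.25. The 2 members that rose, named after their values were seen, were CRY2, a blue light receptor (0.42, adjusted p = 0.00447), and PIF4, a growth-promoting factor that light destabilises (0.95, adjusted p = 0.00188). A G-box was in 16.7% of the promoters of this list.

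Transcripts for the photosynthetic machinery leaned lower at 24 h, but how many passed depended on single libraries. Of 35 tested nuclear genes for photosystems and antenna, 12 fell and none rose, with a median log2 change of -0.58. The 34.3% called was near the 30.7% of all genes called, but above the 16.3% of all genes lower. The summed level of the list was 57950, 38280 and 71840 CPM in the 24 h libraries and 87950, 97510 and 74280 CPM in the 12 h libraries. The groups thus did not overlap, but 24 h library 3 lay close to 12 h library 3. LHCB2.3, an antenna protein of photosystem II, had 265, 132 and 529 CPM at 24 h and 648, 995 and 590 CPM at 12 h (-1.27, adjusted p = 0.035). LHCB1.3, which shares near-identical sequence with LHCB1.1 and LHCB1.2 so that reads may be split among them, fell by 1.01, the photosystem I antenna gene LHCA2 by 0.64 and the photosystem I subunit gene PSAN by 0.92. The count of members that fell was 2 without 24 h library 1, 2 without 12 h library 1, 0 without 24 h library 2, 0 without 12 h library 2 and 29 without 24 h library 3. It was 6 with library size scaling and 20 by DESeq2. Each of the 4 named calls ended both without 24 h library 2 and without 12 h library 2, at adjusted p between 0.0637 and 0.141, and those of LHCA2 and LHCB2.3 also without 12 h library 1 (0.0803 and 0.061) or 24 h library 1 (0.067 and 0.109).

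The Calvin cycle and chlorophyll synthesis lists behaved alike in direction. In the Calvin cycle list 7 of 18 members fell and none rose (38.9% called), with a median of -0.57: FBA1, a plastid aldolase, fell by 0.88, the glyceraldehyde phosphate dehydrogenase genes GAPA and GAPB by 0.78 and 0.74, and SBPASE, a regulated phosphatase of the cycle, by 0.76. The count was 3 without 12 h library 1, 2 without 24 h library 2, 3 without 12 h library 2 and 15 without 24 h library 3. The call of SBPASE ended without those first 3 libraries (adjusted p = 0.0572, 0.0828 and 0.0607), and that of GAPB without 24 h library 2 (0.0569). In chlorophyll synthesis 7 of 15 members fell and none rose (46.7% called), with a median of -0.54. HEMA1, the first enzyme committed to tetrapyrroles, had 514, 319 and 510 CPM at 24 h and 1069, 1093 and 865 CPM at 12 h (-1.17, adjusted p = 0.000784). GUN5, a magnesium chelatase subunit, fell by 0.93, GUN4, its activator, by 0.99 and CRD1, a cyclase subunit, by 0.76. The number that fell was 4 without 24 h library 1, 12 h library 1 or 12 h library 2, and 3 without 24 h library 2, where the call of CRD1 ended (0.0564). GUN4 overlaps another gene over 73% of its length. Transcripts encoded in the chloroplast were a small part of these libraries, between 0.03575% and 0.04546% of counts at 24 h and between 0.03947% and 0.08939% at 12 h.

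Of 33 tested starch genes 12 fell and none rose, with a median log2 change of -0.50. The 36.4% called was near the 30.7% of all genes called, but above the 16.3% of all genes lower. BAM9, a beta-amylase homologue without catalytic activity, had 53.6, 46.9 and 74.7 CPM at 24 h and 574, 525 and 477 CPM at 12 h, against a mean of 73.9 CPM at 0 h (-3.17 ± 0.21, edgeR adjusted p = 2.92e-07). GBSS1, the granule-bound enzyme that makes amylose, had 566, 426 and 749 CPM at 24 h and 1797, 1664 and 1409 CPM at 12 h (-1.48, adjusted p = 0.00018). For both genes the 24 h and 12 h libraries were well apart, and GBSS1 averaged 71.6 CPM at 0 h. BAM3, the main beta-amylase of leaf starch breakdown at night, had 772, 660 and 767 CPM at 24 h and 1993, 1767 and 1839 CPM at 12 h (-1.35, adjusted p = 6.21e-05), and the starch synthase gene SS2 fell by 0.76. The number of members that fell was 7 without 24 h library 1 and 6 without 12 h library 1 or without 24 h library 2, and 1 member rose without 24 h library 3 or 0 h library 2.

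Genes of sugar status and darkness went mostly the other way: 9 of 26 tested members rose and 2 fell (42.3% called), with a median log2 change of 0.33. EXO, a secreted protein of leaf growth that brassinosteroids induce, had 324, 348 and 331 CPM at 24 h and 33.2, 37.2 and 29.4 CPM at 12 h, with a mean of 44.7 CPM at 0 h (3.33 ± 0.47, edgeR adjusted p = 0.00014). MCCB, a subunit of a leucine-degrading carboxylase induced in the dark, rose by 0.50 (adjusted p = 0.00324). The 2 members that fell were DIN9, a dark-inducible gene (-1.09), and TPS5, a class II trehalose phosphate synthase (-1.36). Without 24 h library 2 or without 12 h library 2 the number that rose was 5. SWEET1, a glucose transporter of the plasma membrane and one of the 5 genes with the smallest p, had 16.6, 13.2 and 15.4 CPM at 24 h and 84.5, 76.2 and 64.6 CPM at 12 h (-2.32, adjusted p = 2e-07).

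In nitrogen and sulfur assimilation 8 of 15 tested members fell and none rose (53.3% called), with a median of -0.64. The APR genes encode the reductase that controls sulfate assimilation and made up the top of the list. APR2 had 309, 326 and 451 CPM at 24 h and 1671, 1432 and 1219 CPM at 12 h, against a mean of 110 CPM at 0 h (-1.99, adjusted p = 1.46e-06). APR3 had 110, 152 and 152 CPM at 24 h and 649, 626 and 507 CPM at 12 h, against 18.8 CPM at 0 h (-2.11, adjusted p = 2.05e-06). APR1 fell by 1.78, and SDI1, a gene induced by sulfur deficiency, by 0.94. All 3 APR genes stood highest at 12 h and lowest at 0 h. The count was 5 without 24 h library 1 or 12 h library 2, and 4 without 12 h library 1 or 24 h library 2.

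**Figure D2:**
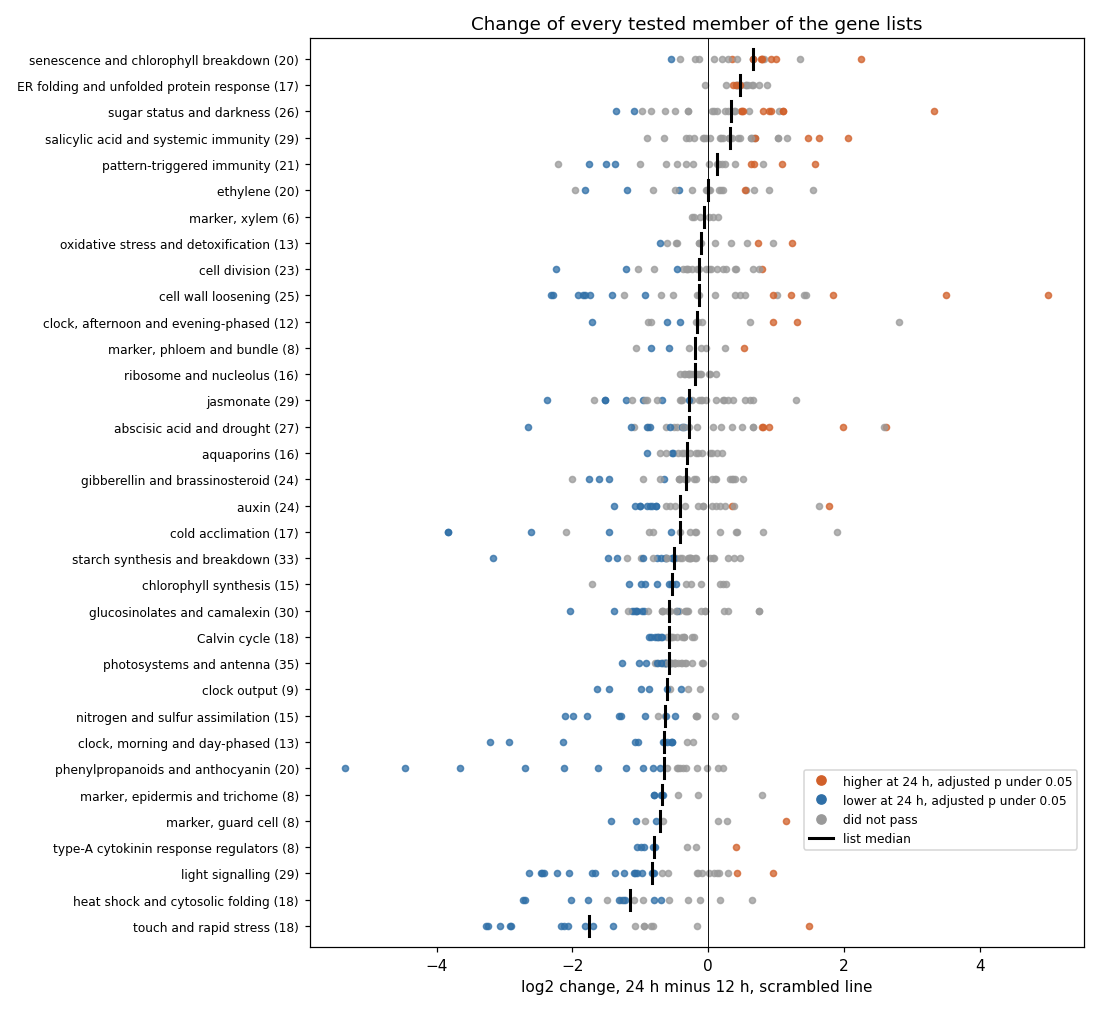
Log2 change at 24 h minus 12 h in the scrambled line for every tested member of 34 gene lists, with the number tested in brackets and black bars for list medians; orange and blue points passed at an adjusted p under 0.05. Touch and rapid stress genes have the lowest median (-1.76) and senescence genes the highest (0.66).

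Rapid stress genes had the lowest list median. Of 18 tested genes induced by touch and other sudden stimuli, 11 fell and 1 rose (66.7% called), with a median log2 change of -1.76, and the number that fell was between 9 and 11 with any 1 library of the comparison left out. CAF1A, a deadenylase that shortens mRNA tails, had 32.4, 23.56 and 31.2 CPM at 24 h and 329, 254 and 263 CPM at 12 h (-3.28 ± 0.26, edgeR adjusted p = 1.32e-06). ZAT10, a zinc finger repressor of stress responses, had 33.4, 57.3 and 61.6 CPM at 24 h and 472, 335 and 342 CPM at 12 h (-2.92, adjusted p = 5.5e-05). ZAT12, another such zinc finger gene, had 23.9, 24.6 and 31.1 CPM at 24 h and 112, 103 and 131 CPM at 12 h (-2.12, adjusted p = 1.89e-05). The 24 h libraries of these genes lay also below their 0 h means of 276, 228 and 63.7 CPM. ERF104, an ethylene response factor of immune signalling, fell by 2.90. The member that rose, named after its value was seen, was MYB44, a repressor in abscisic acid signalling (1.49, adjusted p = 0.000444).

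Cold acclimation genes passed about as often as all genes. Of 17 tested members 5 fell and none rose, with a median of -0.42. The 29.4% called was near the 30.7% of all genes called, but above the 16.3% of all genes lower. CBF2, a master factor of cold acclimation, had 1.52, 1.27 and 0.977 CPM at 24 h and 23.3, 18.5 and 12.33 CPM at 12 h, against a mean of 17.44 CPM at 0 h (-3.84 ± 0.44, adjusted p = 2.52e-05). CBF1, its tandem neighbour, had 0.0897, 0.997 and 0.163 CPM at 24 h and 9.12, 6.29 and 2.45 CPM at 12 h (-3.83, adjusted p = 0.000625). Both were thus near the lower end of detection at 24 h. GOLS1, an enzyme of raffinose synthesis, fell by 1.46 and ICE1, an activator of CBF genes, by 0.55. The fifth, named after its value was seen, was GOLS3 (-2.61), a relative of GOLS1.

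In the heat shock list 9 of 18 tested members fell and none rose (50.0% called), with a median of -1.16 that was -0.758 without 12 h library 2, and the number that fell was 9 in each of the fits without 1 library. HSFA2, a heat-induced heat shock factor, had 7.8, 8.79 and 5.13 CPM at 24 h and 41.6, 62.2 and 40.4 CPM at 12 h, against a mean of 2.08 CPM at 0 h (-2.73 ± 0.38, adjusted p = 0.000117). HSFA7A, another class A factor, fell by 2.70, and HSFB2A and HSFB2B, which act as repressors, by 1.32 and 1.77. Endoplasmic reticulum folding genes had 3 of 17 members higher and none lower, with a median of 0.47. The 18% called was below the 30.7% of all genes called and near the 14.4% of all genes higher. The 3 were the stress sensors IRE1A (0.47), IRE1B (0.41) and BZIP28 (0.37), at adjusted p between 0.0207 and 0.0406. None of them passed without 24 h library 1 (0.0636 to 0.0991), 12 h library 1 (0.101 to 0.118) or 24 h library 2 (0.101 to 0.209), and without 12 h library 2 only IRE1B did. BZIP28 also did not pass without 12 h library 3 (0.0539), and 6 members of the list rose without 0 h library 2.

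**Figure D3:**
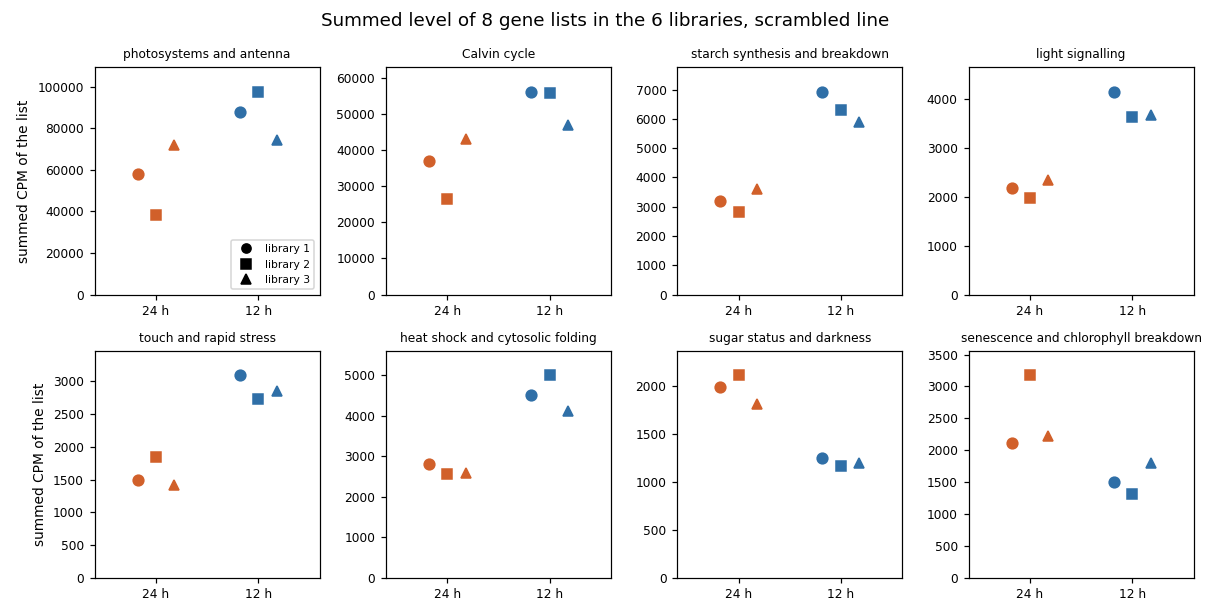
Summed CPM of the tested members of 8 gene lists in each of the 6 scrambled-line libraries, 24 h left and 12 h right; symbols give the library number. In photosystems and antenna, 24 h library 2 is lowest (38280 CPM) and 24 h library 3 highest (71840 CPM) of its group, whereas touch and rapid stress genes lie between 1413 and 1841 CPM at 24 h and between 2733 and 3095 CPM at 12 h.

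Growth-related lists held both directions. In the cell wall loosening list 5 of 25 tested members rose and 8 fell (52.0% called), with a median of -0.14. XTH33, a xyloglucan-modifying enzyme, had 9.33, 4.08 and 14.6 CPM at 24 h and 0.182, 0.295 and 0.363 CPM at 12 h (5.01 ± 0.88, edgeR adjusted p = 0.000772). At 12 h it stood near the floor of 3 counts, so the size of its rise is not well resolved. EXLA1, an expansin-like protein, had 62.6, 44.7 and 103 CPM at 24 h and 7.84, 5.80 and 4.80 CPM at 12 h (3.51, adjusted p = 4.68e-05). The other members that rose, named after their values were seen, were EXLA2 (1.84), XTH7 (0.95) and XTH30 (1.22). EXPA11, which encodes an alpha-expansin, a wall-loosening protein, had 4.93, 3.62 and 7.49 CPM at 24 h and 25.7, 29.6 and 23.7 CPM at 12 h (-2.29, adjusted p = 4.44e-05), and the alpha-expansin genes EXPA15 and EXPA3 fell by 2.31 and 1.74. Both directions held genes without overlap between the times, which is description only. The number that rose was 2 without 12 h library 2 and 3 without any other 1 library of the 6, and 8 with library size scaling. Of 16 aquaporins, the water channels of the membrane, 3 fell and none rose (18.8% called), and 1 did without 24 h library 1, 12 h library 1 or 24 h library 2. They were PIP1;2 (-0.52), PIP2;2 (-0.54) and PIP2;3 (-0.90). The 18.8% called was below the 30.7% of all genes called, and near the 16.3% of all genes lower. The calls of PIP1;2 (0.0597, 0.0869 and 0.0755) and PIP2;2 (0.135, 0.147 and 0.109) ended without each of those 3 libraries, and that of PIP2;2 also without 12 h library 2 (0.0989).

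Among auxin genes 9 of 24 fell and 2 rose (45.8% called), with a median of -0.42. The auxin exporter gene PIN3 fell by 0.86, and PIN7, another exporter gene, had 15.4, 14.1 and 16.8 CPM at 24 h and 34.5, 31.6 and 26.8 CPM at 12 h (adjusted p = 0.00116). IAA7 and IAA16, repressors of auxin response, fell by 0.83 and 0.90. The members that rose, named after their values were seen, were IAA9 (0.34) and GH3.6 (1.78), which encodes an auxin-conjugating enzyme. The number that rose was 0 without 24 h library 2 or 12 h library 2, and 1 without 24 h library 1, 12 h library 1 or 12 h library 3. Type-A response regulators, which dampen cytokinin signalling, had 5 of 8 members lower and 1 higher (75% called), with a median of -0.80: ARR5 fell by 0.95, ARR7 by 0.99, ARR8 by 0.79 and ARR9 by 0.82. Named after their values were seen, ARR6 fell by 1.05 and ARR4 rose by 0.41. Without 24 h library 1 or without 24 h library 2, 3 members fell and the call of ARR9 ended in both (adjusted p = 0.0551 and 0.0634), and with any 1 of the 6 libraries left out none rose. In the gibberellin and brassinosteroid list 4 of 24 fell and none rose (16.7% called): ROT3, a brassinosteroid-synthesis enzyme (-1.46), the brassinosteroid-induced bHLH genes BEE1 (-1.60) and BEE2 (-1.75), and RGA, a DELLA repressor (-0.65). The 16.7% called was below the 30.7% of all genes called, and near the 16.3% of all genes lower. Without 24 h library 3 the count of members that fell was 7. Cell division genes had 1 of 23 higher and 3 lower (17% called): KRP2, a cyclin-dependent kinase inhibitor, fell by 2.24, the D-type cyclin genes CYCD1;1 and CYCD5;1 by 1.21 and 0.46, and PRL, a replication helicase subunit, rose by 0.80. The call of PRL ended without 24 h library 1 (0.0974) or 3 (0.159), or 12 h library 1 (0.107) or 3 (0.113). That of CYCD1;1 ended without 24 h library 1 (0.0535) or 2 (0.0604) or 12 h library 2 (0.0555), and that of CYCD5;1 without 24 h library 1 (0.0873) or 12 h library 1 (0.201). The number that fell was 1 without 24 h library 1 and 5 without 24 h library 3. The 17% called among cell division genes was below the 30.7% of all genes called. None of 16 ribosome and nucleolus genes passed, with a median of -0.20, while 3 fell without 24 h library 3 and 4 without 12 h library 3.

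Hormone lists of stress and defence differed in how many members passed. Abscisic acid and drought genes had 5 of 27 members higher and 7 lower (44.4% called): AAO3, the last enzyme of abscisic acid synthesis, rose by 0.79 and ERD1, a plastid protease regulator induced by drought, by 0.89, while ABA2, an earlier enzyme of the pathway, fell by 0.87 and ABF4, a bZIP factor of the response, by 0.56. The other members that rose, named after their values were seen, were the phosphatase genes HAI1 (2.61), HAI2 (1.99) and AHG3 (0.80). The number that rose was 3 without 24 h library 1 and 2 without any other 1 of the 6. In the ethylene list 3 of 20 fell and 1 rose (20.0% called, below the 30.7% of all genes called). ACS6 and ACS7 encode enzymes that make the ethylene precursor and fell by 1.195 and 1.81, EIL1, an EIN3-like factor, fell by 0.43, and EBF2, an F-box protein that removes EIN3, rose by 0.55. All 4 calls ended without 24 h library 1 (0.0641, 0.102, 0.0938 and 0.0659). ACS6 also did not pass without 12 h library 1 (0.0639), ACS7 without 24 h library 2 (0.122) or 12 h library 2 (0.0592) or 3 (0.133), and EIL1 without 24 h library 2 (0.114) or 12 h library 1 (0.086) or 2 (0.0934). EBF2 did not pass without 24 h library 2 (0.366) or 12 h library 1 (0.0912), 2 (0.161) or 3 (0.0621). Jasmonate genes had 7 of 29 lower and none higher. The 24% called was below the 30.7% of all genes called, but above the 16.3% of all genes lower. MYC4, a bHLH factor of jasmonate responses, had 21.3, 20.2 and 17.7 CPM at 24 h and 59.7, 52.1 and 57.4 CPM at 12 h (-1.52, edgeR adjusted p = 8.01e-06). MYC2 fell by 2.38, the repressor gene JAZ9 by 1.52 and AOC4, a biosynthetic cyclase, by 0.68. MYC2 overlaps another gene over 98.5% of its length. The count was 4 without 24 h library 2 or 12 h library 2, where the call of AOC4 ended (0.0633 and 0.0682), and 1 member rose without 24 h library 3 or 0 h library 2.

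Salicylic acid and systemic immunity genes had 4 of 29 members higher and none lower (13.8% called, below the 30.7% of all tested genes, and higher about as often as the 14.4% of all genes), with a median of 0.31. PR1, the marker gene of systemic immunity, had 1484, 2722 and 1280 CPM at 24 h and 300, 386 and 627 CPM at 12 h (2.06 ± 0.68, adjusted p = 0.032). PR2, a secreted glucanase, had 2630, 3760 and 2418 CPM at 24 h and 720, 670 and 1446 CPM at 12 h (1.64, adjusted p = 0.0392). WRKY60, a transcription factor induced by salicylic acid, had 100, 116 and 94.5 CPM at 24 h and 32.5, 29.8 and 50.2 CPM at 12 h (1.47, adjusted p = 0.00279). The fourth was SAG101, a partner of EDS1 (0.69, adjusted p = 0.0432). Without 24 h library 1, 12 h library 1, 24 h library 2 or 12 h library 2 the count was 1. PR1 then had adjusted p values of 0.0522, 0.117, 0.125 and 0.103, PR2 of 0.0683, 0.132, 0.126 and 0.137, and SAG101 of 0.128, 0.175, 0.142 and 0.118, in the order 24 h library 1, 12 h library 1, 24 h library 2, 12 h library 2. Without 0 h library 2, which enters the shared estimate of spread, 7 members rose. In pattern-triggered immunity 4 of 21 rose and 3 fell (33.3% called, near the background): the flagellin receptor gene FLS2 rose by 1.08, its co-receptor gene BAK1 by 0.63 and the chitin receptor gene CERK1 by 0.67, while PROPEP1, which encodes a danger peptide precursor, fell by 1.76. Named after their values were seen, PHI-1 rose by 1.57, and the transcription factor genes WRKY22 and WRKY53 fell by 1.502 and 1.38.

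Specialised metabolism leaned lower. Glucosinolate and camalexin genes had 9 of 30 members lower and none higher, with a median of -0.57. The 30.0% called was near the 30.7% of all genes called, but above the 16.3% of all genes lower. MYB34, an activator of indole glucosinolates, had 3.59, 1.90 and 6.43 CPM at 24 h and 18.23, 15.2 and 15.7 CPM at 12 h (-2.03, edgeR adjusted p = 0.000214). MYB28 and MYB29, activators of aliphatic glucosinolates, fell by 0.95 and 1.099, and UGT74B1, a glucosyltransferase of the pathway, by 0.98. In the phenylpropanoid list 10 of 20 fell and none rose (50.0% called), with a median of -0.66. MYB111 and MYB12, activators of flavonol synthesis, were almost silent at 24 h: MYB111 had 0, 0.181 and 0.407 CPM at 24 h and 7.75, 11.2 and 7.16 CPM at 12 h (-5.35 ± 0.71, adjusted p = 8.55e-05). MYB12 had 0.0897, 0.0906 and 0.326 CPM at 24 h and 3.56, 4.82 and 3.90 CPM at 12 h (-4.47, adjusted p = 3.54e-05). Their 0 h means of 0.226 and 0.0716 CPM were low as well. In 24 h libraries 1 and 2 both genes lay below 3 counts (0.269 and 0.272 CPM), so the sizes of their falls are not well resolved. UGT78D2, a flavonoid glucosyltransferase, had 31.7, 31.9 and 42.7 CPM at 24 h and 152, 162 and 152 CPM at 12 h (-2.13 ± 0.15, adjusted p = 5.7e-07), and MYBL2, a repressor of anthocyanin synthesis, fell by 1.62. Without 24 h library 2 the number that fell was 6, and without 24 h library 3 1 member rose. Of 13 oxidative stress genes 23.1% passed, below the 30.7% of all genes called. Of them 2 rose, CAT1 (1.23), a catalase, and APX1 (0.73), an ascorbate peroxidase, and DHAR1, a dehydroascorbate reductase, fell by 0.71. The call of APX1 ended without 24 h library 1 (0.0929), 12 h library 1 (0.0762) or 12 h library 2 (0.0709). DHAR1 lost its call without 24 h library 1 (0.0797) or 2 (0.0533) or 12 h library 2 (0.0513) or 3 (0.0539), and the number of genes that fell was 3 without 24 h library 3.

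Senescence and chlorophyll breakdown genes were the list with the largest median increase: 8 of 20 tested members rose and 1 fell (45.0% called), with a median log2 change of 0.66 that was 0.309 without 24 h library 2. NYE2, a homologue of the magnesium-removing enzyme of chlorophyll breakdown, had 3.23, 7.16 and 8.30 CPM at 24 h and 1.73, 0.786 and 1.36 CPM at 12 h (2.25, edgeR adjusted p = 0.000517). PAO, the oxygenase that opens the chlorophyll ring, had 190, 237 and 200 CPM at 24 h and 112, 90.0 and 128 CPM at 12 h (0.93, adjusted p = 0.000287). PPH, which removes the phytol tail, rose by 0.79, and ATG8I, an autophagy protein, rose by 0.79 ± 0.10 (adjusted p = 4.15e-05). The 24 h libraries of all 4 lay above the 12 h libraries. SAG12, a late senescence marker, had 3 counts over the 24 h libraries and 0 over the 12 h libraries and was not tested. The member that fell, named after its value was seen, was ACD2 (-0.55), a reductase of chlorophyll breakdown. That fall passed in none of the fits without 24 h library 1 or 2 or 12 h library 1 or 2, and 2 members fell without 24 h library 3.

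Among markers of leaf cell types, 50.0% of guard cell, 62.5% of epidermis and trichome and 37.5% of phloem and bundle markers were called. Of all tested genes 30.7% were called, 16.3% lower and 14.4% higher, so the phloem share was near that of all genes. Each of these 3 lists had only 8 tested members. Guard cell markers fell in 3 of 8 cases and rose in 1, with a median of -0.72 and a summed level of 643.3 to 885.7 CPM at 24 h against 1256 to 2069 CPM at 12 h: MYB60, a guard cell factor that promotes opening, fell by 1.44, the myrosinase gene TGG1 by 1.06 and FAMA, a guard cell fate factor, by 0.77, and the potassium channel gene KAT1 rose by 1.14. Epidermis and trichome markers fell in 5 of 8 cases and rose in none, with a median of -0.68 and a sum of 690 to 931 CPM at 24 h against 1023 to 1534 CPM at 12 h. They were CUT1 and FDH, enzymes of wax and cuticle (both -0.80), and the epidermal fate genes PDF2 (-0.67) and ATML1 (-0.68), and, named after its value was seen, LTP1 (-0.70), a lipid transfer protein. The count of epidermal markers that fell was 1 without 12 h library 1, 2 without 24 h library 2 and 3 without 12 h library 2. Without 12 h library 1 the calls of CUT1 (0.061), PDF2 (0.0546) and ATML1 (0.0941) ended. Without 24 h library 2 those of CUT1 (0.0513) and ATML1 (0.116) did, and without 12 h library 2 that of ATML1 (0.0662). Among 8 phloem and bundle markers SUC2, the sucrose loader, rose by 0.53, and the sucrose exporter gene SWEET11 (-0.84) and SEOR1, a sieve element protein (-0.58), fell. SUC2 did not pass without 24 h library 1 (0.0919) or 2 (0.0821) or 12 h library 1 (0.0894) or 2 (0.0793), nor SEOR1 without 24 h library 1 (0.0832) or 3 (0.0868) or 12 h library 2 (0.0877) or 3 (0.0938). None of 6 xylem markers passed. The part of cell type shares in the gene lists above was not tested.

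The largest increases were led by genes nearly silent at 12 h. AT1G72760 had 14, 27 and 43 counts at 24 h and 0 counts in each 12 h library, at least 26.1-fold higher over a floor of 3 counts for the group, but its call (adjusted p = 0.0275) ended without 24 h library 2 (0.0616) or 3 (0.0516) or 12 h library 1 (0.0731), 2 (0.0707) or 3 (0.0539). AT1G50040 had 25.8, 17.9 and 41.3 CPM at 24 h and 0.182, 0.393 and 0.272 CPM at 12 h (6.61 ± 0.83, edgeR adjusted p = 4.91e-05), with a 0 h mean of 11.48 CPM. Its 12 h libraries too stood near the floor of 3 counts. AGP17, an arabinogalactan protein of the cell wall, had 93.2, 65.4 and 122 CPM at 24 h and 7.38, 8.65 and 5.80 CPM at 12 h (3.68, adjusted p = 2.16e-05). EXL5 and EXL3, relatives of EXO, belonged to the same 12 genes: EXL5 had 88.5, 60.6 and 133 CPM at 24 h and 7.02, 10.2 and 5.44 CPM at 12 h (3.64, adjusted p = 2.54e-05), and EXL3 rose by 3.39. XTH33 and EXLA1, described above, were among them too. AT3G46890, AT3G03341, AT4G16563, PYD4 and AT3G19680 completed them. AT3G46890 had only 2, 2 and 3 counts at 24 h and 0 at 12 h, at least 2.18-fold higher. Its place among the 12 rests on the prior count of the fit and its mean level on the NAA50 line at 24 h (12.59 CPM), and it lost its call without 12 h library 1 (0.0515). PYD4 (3.59, adjusted p = 0.049) lost its call without each of the 6 libraries, at 0.0507, 0.119 and 0.0913 for 24 h libraries 1 to 3 and 0.116, 0.142 and 0.0898 for 12 h libraries 1 to 3. AT4G02540, one of the 5 genes with the smallest p, had 48.0, 56.2 and 61.4 CPM at 24 h and 8.48, 10.4 and 6.62 CPM at 12 h (2.70 ± 0.17, adjusted p = 2e-07).

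The largest decreases included several transcription factor genes. AT1G24130 had 0 counts in each 24 h library and 9, 8 and 8 counts at 12 h, at least 8.93-fold lower over a floor of 3 counts for the group. Its place among the 12 rests on the prior count of the fit, and its mean level on libraries outside this comparison. ORA47, an AP2/ERF factor that activates jasmonate synthesis, had 1.44, 4.71 and 6.59 CPM at 24 h and 252, 120 and 64.5 CPM at 12 h (-5.08 ± 0.68, edgeR adjusted p = 9.01e-05). Its 3 libraries at 12 h spread widely but all stood far above those at 24 h, and its 0 h mean was 95.7 CPM. SRG3, a glycerophosphodiester phosphodiesterase gene that overlaps another gene over 36.9% of its length, had 1.97, 2.81 and 1.38 CPM at 24 h and 50.7, 32.4 and 27.4 CPM at 12 h (-4.17, adjusted p = 1.46e-06). MYB111, MYB12, CBF2 and CBF1, given above, were also among the 12. AT1G19210 (-4.73), AT5G21960 (-4.68), AT4G27654 (-4.10), AT5G51190 (-3.92), which a gene on the opposite strand overlaps over 100% of its length, and AT1G78170 (-3.82) completed them.

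**Figure D4:**
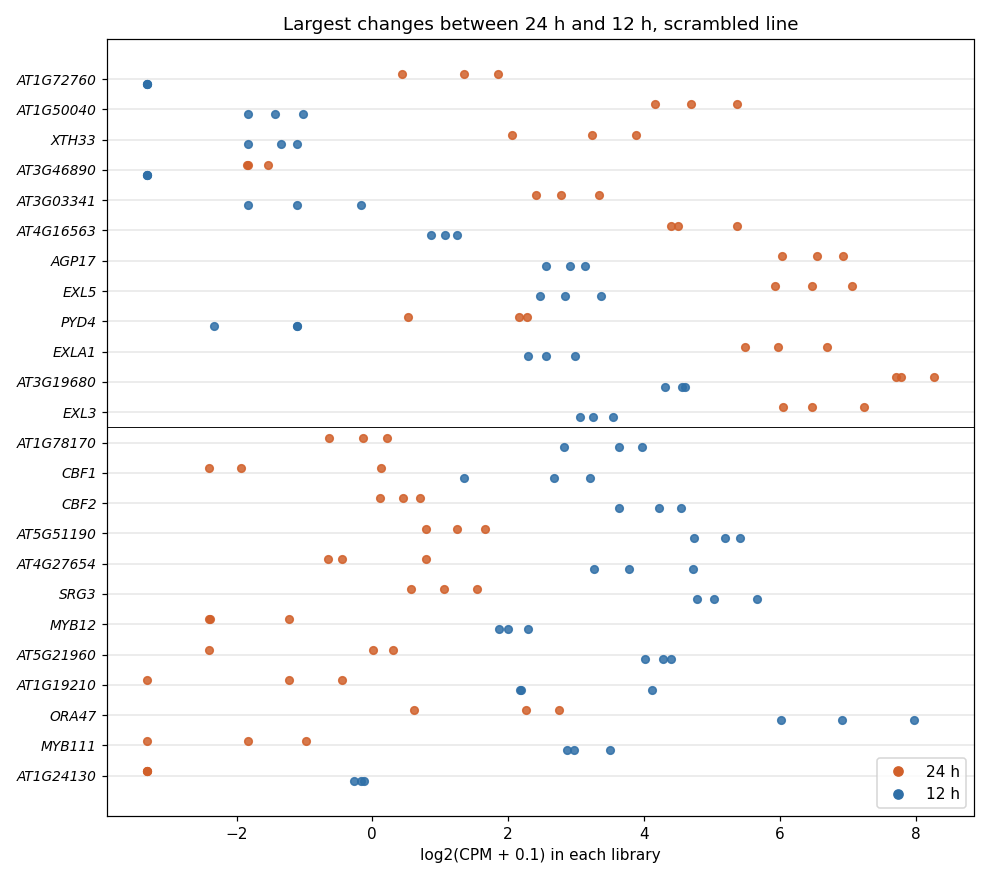
Level of the 12 largest increases (top) and the 12 largest decreases (bottom) in each scrambled-line library, as log2(CPM + 0.1), with 24 h in orange and 12 h in blue. No gene overlaps between the times, which the choice of these genes required.

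The NAA50 line, sampled at the same times, shares no library with the scrambled line. There 3677 of the 18344 genes (20.0%) changed between 12 and 24 h, 1901 (10.4%) higher and 1776 (9.68%) lower at 24 h. With library size scaling 1498 were higher and 2272 lower, so the larger direction changed. Of the scrambled line's calls 27.6% were also called in the same direction in the NAA50 line, which is 42.2% of that line's calls, and 121 genes were called in opposite directions. The sign alone was the same in both lines for 79.3% of the scrambled line's calls, against 65.9% of all tested genes. A test of the difference between the changes called 1242 genes (6.77%), 429 (2.34%) with the scrambled change above and 813 (4.43%) below. For 799 of the 5627 scrambled calls (14.2%) that difference passed. Those calls were chosen by the scrambled change, which is part of the difference, so 14.2% cannot be read against the 6.77% of all genes. With library size scaling the balance turned, to 1075 above and 587 below, and DESeq2 gave 701 above and 1102 below.

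Morning clock genes had a median log2 change of -0.66 in the scrambled line and -0.51 in the NAA50 line, and the difference passed for 4 of 13. RVE1 changed by -3.22 in the scrambled line and by -1.61 in the NAA50 line (difference -1.61 ± 0.23, edgeR adjusted p = 0.00128), where it stood at 13.5, 14.9 and 15.1 CPM at 24 h and at 43.3, 49.4 and 39.8 CPM at 12 h. PRR9, LNK1 and LNK3 had differences of -0.63, -0.45 and -0.88. TOC1 rose by 0.95 in the scrambled line and 0.98 in the NAA50 line, and the difference did not pass (-0.03 ± 0.34). MYB111 and MYB12 likewise fell by 5.35 and 4.47 in the scrambled line, against 5.44 and 4.02 in the NAA50 line. Both stood near or below 3 counts at 24 h in the scrambled line, so these sizes are not well resolved.

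For 10 of 18 touch and rapid stress genes and 6 of 17 cold genes the difference between the lines passed, while it passed for 6.77% of all genes. The lists were chosen with earlier results of these data known. Of the touch list 66.7% was called by the scrambled change, which is part of the difference. These counts therefore cannot be read against the share of all genes. CAF1A changed by -3.28 in the scrambled line and by -0.53 in the NAA50 line, where its libraries overlapped with 220, 124 and 132 CPM at 24 h and 268, 206 and 212 CPM at 12 h (difference -2.75 ± 0.35, adjusted p = 0.000738). ZAT12 changed by -2.12 and by 0.30 (difference -2.42, adjusted p = 0.000899). CBF2 changed by -3.84 in the scrambled line and by -0.32 in the NAA50 line, with 16.6, 9.56 and 7.68 CPM at 24 h and 17.8, 9.10 and 15.2 CPM at 12 h there (difference -3.52, adjusted p = 0.00272). HSFA2 changed by -2.73 and by -0.20 (difference -2.53, adjusted p = 0.00907). AGP17, which rose by 3.68 in the scrambled line, had 17.5, 28.9 and 24.8 CPM at 24 h and 18.1, 24.9 and 20.6 CPM at 12 h in the NAA50 line (difference 3.52, adjusted p = 0.00225). AT4G02540 changed by 2.70 and by 0.22 (difference 2.47, adjusted p = 5.95e-05).

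Among the widest differences were genes with changes of opposite sign. RHA2B, a ubiquitin ligase gene of abscisic acid signalling, had 0.269, 0.362 and 0.57 CPM at 24 h and 2.097, 2.16 and 1.99 CPM at 12 h in the scrambled line, and 19.5, 19.96 and 9.62 CPM at 24 h and 1.72, 2.27 and 0.986 CPM at 12 h in the NAA50 line (difference -5.61 ± 0.51, edgeR adjusted p = 5.95e-05). DDF1, a relative of the CBF factors, had a log2 change of -2.09 in the scrambled line, which did not pass (adjusted p = 0.0515), and rose in the NAA50 line (adjusted p = 0.00222; difference -5.09, adjusted p = 0.00641). PIRL8, a leucine-rich repeat protein, had 0.449, 0.272 and 0.896 CPM at 24 h and 0.274, 0.197 and 0.0907 CPM at 12 h in the scrambled line, and 39.1, 45.2 and 39.0 CPM at 24 h and 152, 143 and 136 CPM at 12 h in the NAA50 line (difference 3.31, adjusted p = 0.0129). Its change in the scrambled line did not pass (adjusted p = 0.105). All its scrambled 12 h values and that of 24 h library 2 stood at about 3 counts or fewer. The direction of that change is therefore not resolved, and the difference rests mainly on the NAA50 line. AT5G02760 had 9.33, 10.2 and 22.1 CPM at 24 h and 5.83, 6.10 and 6.25 CPM at 12 h in the scrambled line (1.201), and a change of -2.08 in the NAA50 line (difference 3.28, adjusted p = 0.0149). Its call in the scrambled line ended without 24 h library 3 (0.054).

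**Figure D5:**
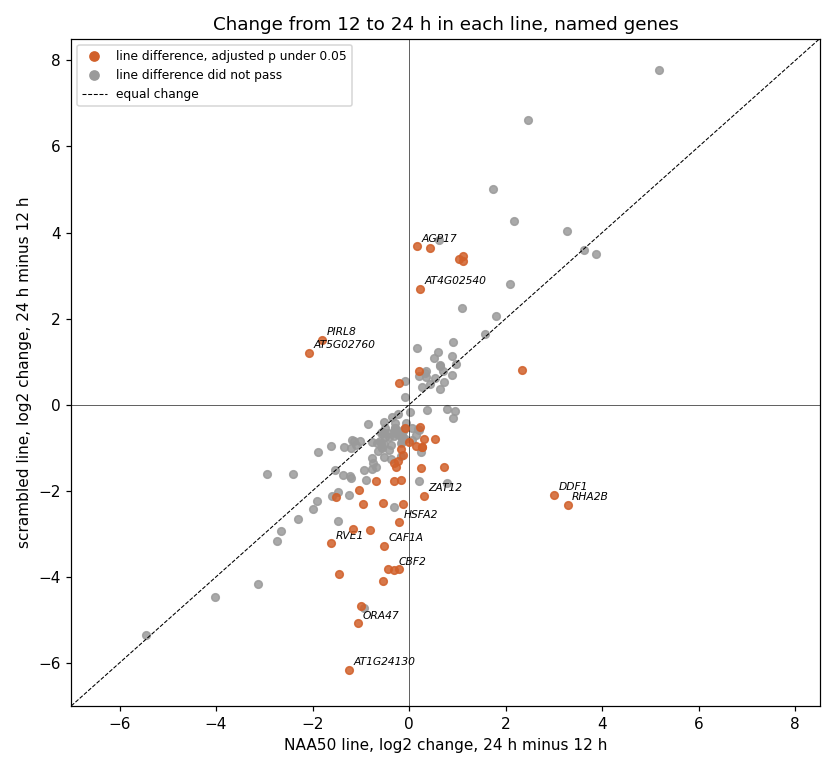
Log2 change at 24 h minus 12 h in the scrambled line (vertical axis) against that in the NAA50 line (horizontal axis) for the named genes; orange points passed the test of the difference and the dashed line marks equal change. RHA2B and DDF1 lie lower right, with opposite signs in the lines, and 40 of the 50 orange points lie below the dashed line. Most named genes were chosen by their scrambled change, which is part of the difference. That balance was therefore partly set by the choice.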

How the data were processed

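The deposited table holds raw read counts per gene, whole numbers for 23790 genes in 18 libraries, made by the authors from stranded polyA libraries per the labels' protocols. The submitters' processing notes name Trimmomatic, STAR, DESeq2 and TAIR10; which tool counted reads, whether by strand and on which annotation is not given in the sources used here, so reads of overlapping genes may not be separated. Counts were analysed in edgeR 4.0.16 (R 4.3.3): filterByExpr with a minimum count of 10, TMM scaling, prior count 0.125 and the quasi-likelihood F test with 1 mean per group over all 18 libraries (12 residual degrees of freedom), called at a Benjamini-Hochberg adjusted p under 0.05. The same tool and adjustment hold for every adjusted p given. SE is the log2 change divided by the square root of F.

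Named genes were the 12 largest changes each way without overlap (mean log2 CPM of at least 1), the 5 with the smallest p, up to 4 called members of each list, all clock members, the 3 widest line differences each way and NAA50. The members and lists were chosen with earlier results of these data known. Of 713 list members written, 698 matched their locus in RefSeq TAIR10.1 and 650 were tested. Alternatives were RLE and library size scaling, no filter, DESeq2 1.42.0, a replicate block, fewer libraries in the fit and leaving out single libraries. Floors of 3 counts cover counting error only.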

Additional observations from a re-analysis of the deposited data

Results flagged for a closer look

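The change at 24 h minus 12 h differed between the scrambled line and the NAA50 line for 1242 genes by edgeR's test of the difference (adjusted p under 0.05), among them 50 of the 172 named genes. Most named genes were chosen by their scrambled change and some by the line difference itself. The number of named genes that passed and their split by direction were therefore partly set by that choice. The balance over all genes, 429 above and 813 below, was 1075 above and 587 below with library size scaling. The values below are scrambled change minus NAA50-line change on the log2 scale. The scrambled change was above that of the NAA50 line for 10 named genes: AGP17 (3.52), PIRL8 (3.31), AT5G02760 (3.28), EXL5 (3.20), AT4G02540 (2.47), EXL3 (2.36), AT3G19680 (2.35), EXO (2.22), MCCB (0.72) and ATG8I (0.59). PIRL8 stood near the floor of 3 counts in the scrambled line at 12 h.

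It was below that of the NAA50 line for 40 named genes. Those with a difference of at least 2 on this scale were RHA2B (-5.61), DDF1 (-5.09), AT1G24130 (-4.92), ORA47 (-4.03), AT5G21960 (-3.68), AT1G78170 (-3.60), AT4G27654 (-3.57), CBF2 (-3.52), CBF1 (-3.39), CAF1A (-2.75), HSFA2 (-2.53), AT5G51190 (-2.48), ZAT12 (-2.42), EXPA15 (-2.18), ROT3 (-2.18) and ZAT10 (-2.11). AT1G24130 has 0 counts at 24 h in the scrambled line, so its value depends on the prior count. Smaller differences were those of EXPA11 (-1.75), ERF104 (-1.74), GRP7 (-1.72), RVE1 (-1.61), EXPA3 (-1.58), PRL (-1.55), HSFB2B (-1.46), SWEET1 (-1.35), CUT1 (-1.34), ARR7 (-1.25), UGT74B1 (-1.25), GOLS1 (-1.19), APR1 (-1.10), ARR5 (-1.10), FDH (-1.10), HSFB2A (-1.09), HEMA1 (-1.05), BAM3 (-1.02), APR2 (-0.95), LNK3 (-0.88), CDF2 (-0.87), PIP1;2 (-0.75), PRR9 (-0.63) and LNK1 (-0.45). The lines also differ in NAA50 level and in total change, and the part of either in these differences was not tested.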

How the results depend on the processing

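In the scrambled line, 5627 genes were called at 24 h against 12 h, 2645 higher and 2982 lower. Requiring a fold of at least 2 left 1677, 557 and 1120 of them. Leaving out 1 library gave between 3169 and 6670 calls, 1388 to 3234 higher and 1781 to 3599 lower. The NAA50 line gave 2111 to 4121 calls, 1135 to 2100 higher and 976 to 2021 lower. Differences between the lines numbered 603 to 1841, with 194 to 803 above and 409 to 1038 below. The count of 429 above was 1075 with library size scaling (587 below, in place of 813), 701 with DESeq2 and 728 without 0 h library 2. RLE scaling (5692), DESeq2 (5970), no filter (5170), only the 6 libraries (4539) and only the 9 scrambled libraries (4017) kept the scrambled count within 1.5 times. Same-numbered 24 h and 12 h libraries did not deviate together (correlations of -0.105, -0.211 and -0.368), so the numbers were not taken to pair them. Some other groups gave a hint of shared numbers in the data, with all 3 libraries of the first-named group best with their own number. At 12 h the scrambled and NAA50 libraries correlated at 0.128, 0.22 and 0.342. The scrambled 12 h with the NAA50 0 h libraries gave 0.123, 0.132 and 0.0988, and the scrambled 0 h with the NAA50 24 h libraries 0.102, 0.284 and 0.103. Correlations of the scrambled 24 h libraries went down to -0.485 with the scrambled 0 h and -0.413 with the NAA50 12 h libraries. At 24 h the lines gave 0.112, -0.208 and 0.00191. A replicate block in the full fit gave 5367 calls in the scrambled line, 3473 in the NAA50 line and 1105 differences, and the block with only the 6 libraries, chosen after seeing the data, gave 1563, 553 higher and 1010 lower. The median of the oxidative stress list, -0.109, was 0.00306 with library size scaling and between -0.121 and 0.094 without 1 library, its highest without 24 h library 2. Over all alternatives the named genes kept their side of the threshold in 2318 values, lost it in 231, gained it in 6 and reversed in 0. Where a cause is not plain from fewer genes or libraries, the cause was not tested. A gene with under 3 counts in a library lies below what this depth can resolve.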
